A study of Sus scrofa with 30 samples.

Results

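Transcripts of the nuclear receptor family around the peroxisome proliferator-activated receptors (PPAR) and the retinoid X receptors (RXR) were followed in pig embryos before implantation. The group was set as a list of 10 gene symbols: PPARA, PPARD, PPARG, RXRA, RXRB, NR1H2, NR1H3, NR2F2, NR2F6 and NR5A2. Of these, 9 were found by their NCBI gene identifiers among the 13103 genes of the table of all embryos, and PPARA is not analysed here. RNA of 30 single whole embryos had been sequenced, 10 on each of Days 8, 10 and 12 after insemination, and each day held 5 female and 5 male embryos. No embryo was treated. All were sired by the same Pietrain boar, and on every day they were flushed from the uteri of 4 German Landrace × Pietrain gilts that had been given synchronizing hormones. The sources used here do not tie an embryo to its gilt, and the study took female and male embryos from the same gilt, so some embryos are littermates and p-values measure the spread between embryos that are not all independent.

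Nuclear receptors are transcription factors that bind DNA and, in many cases, a small lipophilic ligand. PPARs are activated by fatty acids and their derivatives, and liver X receptors (NR1H2 and NR1H3) by oxysterols. Both kinds bind DNA as heterodimers with an RXR. NR2F2 and NR2F6 belong to the COUP transcription factors, which can bind similar repeats and often repress. NR5A2 binds DNA as a monomer and regulates genes of steroid and bile acid synthesis, and in early embryos also pluripotency genes. In ungulates the trophectoderm, the outer layer that later forms the placenta, elongates before attachment while it is lined by hypoblast, and PPARG has a known role in trophoblast of several species.

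Levels are given as CPM, read counts relative to library size after scaling with TMM factors. CPM do not account for transcript length, so they compare embryos for a gene and not genes with each other. Total counts per embryo ran from 6068212 (d12_f_245, a female embryo of Day 12) to 34002508, with a median of 22202723.5. Every gene of the table reached 0.5 CPM in at least 4 embryos. A gene below that level in every embryo of 2 days could thus be listed only through embryos of the remaining day. The tables made for single days held 7 members on Day 8 (without PPARG and NR2F2), 8 on Day 10 (without NR5A2) and 9 on Day 12. The trophectoderm markers KRT8 and CDX2 were present in every embryo, with at least 6139 and 45.3 CPM. In whole embryos, fewer cells of a type and less RNA per cell cannot be told apart.

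The most marked differences were those of PPARG, NR2F2 and NR5A2, which were low on Day 8 or Day 10 and far higher on Day 12. RXRA and NR1H3 were also higher on Day 12 than on both earlier days, PPARD was higher on Day 12 than on Day 8, and NR1H2 was lower on Day 12. RXRB and NR2F6 were not called in any comparison of days. A gene was called as differentially expressed (DEG) between days when the edgeR quasi-likelihood test gave a false discovery rate (FDR, Benjamini-Hochberg adjusted over all genes) under 0.001 and the log2 fold change was beyond 1.

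**Figure D1:**
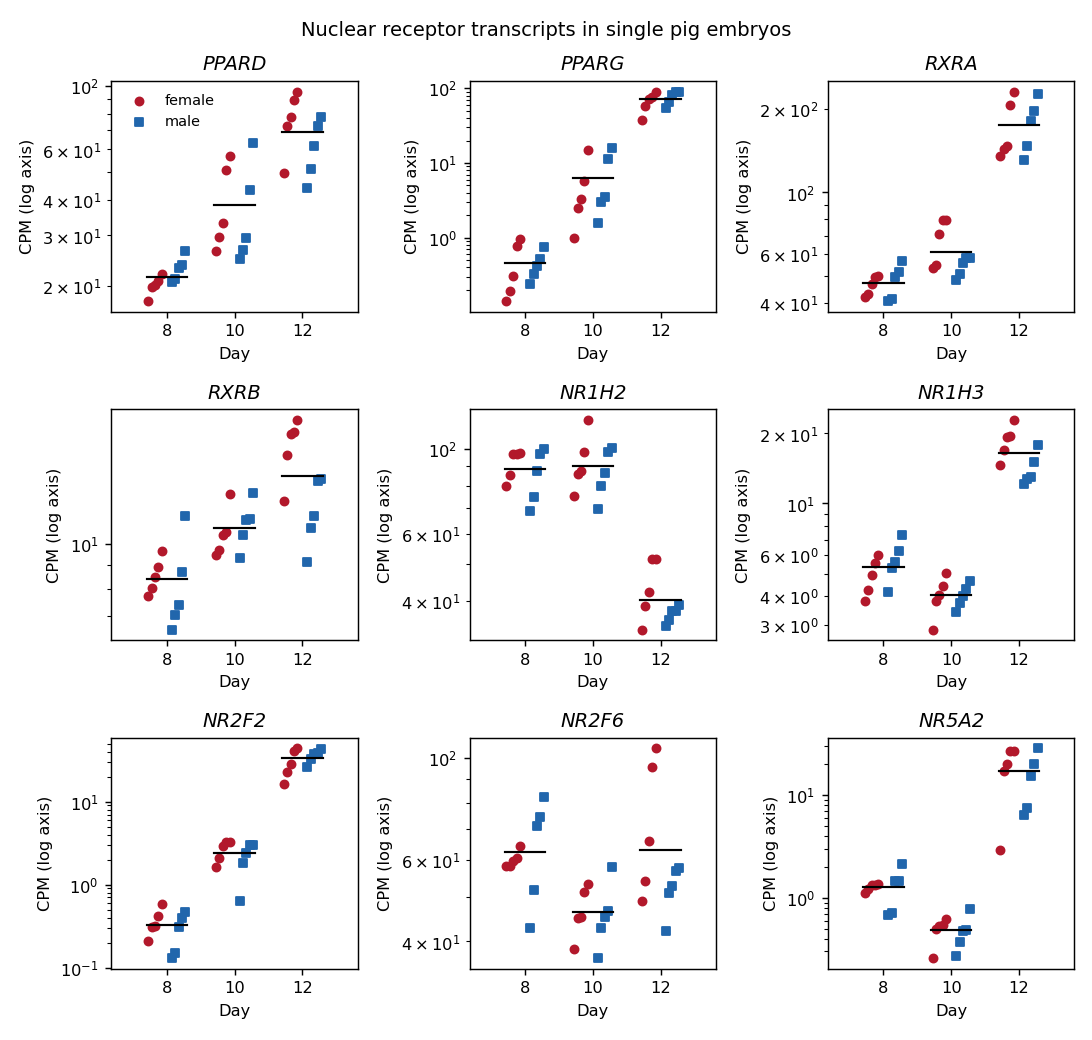
CPM of the 9 receptor genes (log axis) in each embryo against the day, with red circles for female and blue squares for male embryos and a black line for the mean of the 10 embryos of a day. PPARG and NR2F2 stand higher on each later day without overlap, and the NR5A2 embryos of Day 12 spread from 2.94 to 28.6 CPM.

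PPARD, the PPAR with the widest tissue distribution, lies on chromosome 7 at 31222533-31295221 of Sscrofa11.1. Its level ran from 17.6 to 26.4 CPM with a median of 20.9 on Day 8, from 24.8 to 63.3 with a median of 31.3 on Day 10, and from 43.8 to 95.7 with a median of 72.7 on Day 12. Neighbouring days overlapped, while Days 8 and 12 were apart. The log2 fold change was 0.84 ± 0.16 (SE) from Day 8 to Day 10 and 0.85 ± 0.16 from Day 10 to Day 12, with FDR of 7.42e-05 and 4.42e-05, so both passed the FDR and neither reached the fold required. Over both intervals the log2 fold change was 1.68 ± 0.17 (FDR 2.07e-10), a 3.21-fold higher level that was called.

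PPARG, known for its role in fat cells and placenta, lies on chromosome 13 at 68301566-68433951. On Day 8 it ran from 0.141 to 0.951 CPM with a median of 0.368, which rests on only 3 to 25 counts per embryo. On Day 10 the range was 1.0 to 15.6 CPM with a median of 3.40, and on Day 12 it was 37.6 to 90.4 with a median of 74.0. No embryo of a later day was as low as any embryo of an earlier day. The rise was 13.0-fold from Day 8 to Day 10 (log2 fold change 3.70 ± 0.44, FDR 3.26e-08) and 11.4-fold from Day 10 to Day 12 (3.51 ± 0.38, FDR 2.18e-09). From Day 8 to Day 12 it came to 149-fold (7.22 ± 0.48, FDR 2.51e-14).

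The Day 10 embryos were far less alike in PPARG than in the other receptors. The SD of its log2 CPM among them was 1.31, larger than that of 97.9% of all genes on that day, against 0.40 on Day 12. Embryos d10_m_453, d10_f_454 and d10_m_333 had 15.6, 14.9 and 11.2 CPM, and the other 7 had at most 5.74. The same 3 embryos were among the 4 highest in PPARD, with 43.4, 57.0 and 63.3 CPM. Across the 10 embryos the log2 levels of PPARD and PPARG had a Pearson r of 0.84 and a Spearman rho of 0.77 (permutation p = 0.00395 and 0.0126). Among 85 pairs of members tested within days, 0 passed after adjustment and this pair had adjusted p of 0.0784 and 0.146. On Day 12 the same pair had values of the opposite sign, with r of −0.64 and rho of −0.64 (permutation p = 0.0432 and 0.0556, adjusted 0.245 and 0.300). The smallest adjusted p of Pearson's r over all pairs was 0.0784, and 16 pairs had an unadjusted p under 0.05.

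RXRA, one of the shared partners of the PPARs and liver X receptors, lies on chromosome 1 at 273698842-273797622. It ran from 40.6 to 56.8 CPM with a median of 48.4 on Day 8, from 48.5 to 79.9 with a median of 57.0 on Day 10, and from 131 to 231 with a median of 164 on Day 12. Days 8 and 10 overlapped, and Day 12 lay above both. The log2 fold change of 0.37 ± 0.11 between Days 8 and 10 was not called (FDR 0.00673). RXRA rose 2.85-fold from Day 10 to Day 12 (log2 fold change 1.51 ± 0.12, FDR 1.17e-12).

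RXRB, on chromosome 7 at 25236005-25242842, kept a narrow range. Its level was 6.53 to 11.5 CPM on Day 8, 9.32 to 12.9 on Day 10 and 9.15 to 18.5 on Day 12, with medians of 8.26, 10.6 and 13.8, and all days overlapped. The log2 fold change from Day 8 to Day 12 was 0.74 ± 0.12 (FDR 2.13e-06), below the fold required.

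NR1H2, the liver X receptor found in most tissues, is on chromosome 6 at 55238536-55245457 and was the only member called lower on Day 12. It ran from 68.8 to 99.7 CPM with a median of 92.3 on Day 8 and from 69.6 to 119 with a median of 87.0 on Day 10. On Day 12 it ran from 33.6 to 51.5 with a median of 38.1, below every embryo of the earlier days. The log2 fold change was 0.02 ± 0.10 between Days 8 and 10 (FDR 0.842) and −1.17 ± 0.10 between Days 10 and 12 (FDR 8.39e-12), a 2.25-fold lower level. This fold is close to the one required, and a test for changes beyond a log2 fold change of 1 gave an FDR of 0.066.

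NR1H3, the liver X receptor of liver and macrophages, is on chromosome 2 at 15315283-15336785 and moved the other way. Its level was 3.80 to 7.32 CPM with a median of 5.43 on Day 8, 2.86 to 5.02 with a median of 4.03 on Day 10, and 12.1 to 22.9 with a median of 16.0 on Day 12. Days 8 and 10 overlapped and were not called (log2 fold change −0.40 ± 0.13, FDR 0.00994). From Day 10 to Day 12 NR1H3 rose 4.06-fold (2.02 ± 0.13, FDR 3.77e-14), and every Day 12 embryo lay above every earlier one.

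NR2F2, a COUP factor of mesenchyme and uterine stroma that also acts in trophoblast, is on chromosome 7 at 83076119-83090250. On Day 8 it ran from 0.129 to 0.587 CPM with a median of 0.315, from 2 to 19 counts per embryo. The Day 10 range was 0.639 to 3.28 with a median of 2.69, and the Day 12 range was 16.5 to 43.8 with a median of 35.1. As for PPARG, no embryos of different days overlapped. The rise was 6.91-fold from Day 8 to Day 10 (log2 fold change 2.79 ± 0.27, FDR 5.13e-10), 13.8-fold from Day 10 to Day 12 (3.79 ± 0.24, FDR 1.1e-14) and 95.3-fold over both intervals (6.57 ± 0.28, FDR 1.16e-18).

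NR2F6, its more broadly expressed relative on chromosome 2 at 60426116-60438178, was not called between any days. Its ranges were 42.8 to 82.4 CPM on Day 8, 36.8 to 58.1 on Day 10 and 42.2 to 105 on Day 12, with medians of 60.3, 45.3 and 55.5. The log2 fold change was −0.43 ± 0.14 between Days 8 and 10 (FDR 0.00875) and 0.44 ± 0.14 between Days 10 and 12 (FDR 0.00667). Between Days 8 and 12 it was 0.01 ± 0.14 (FDR 0.946), and its sign changed with the fit.

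NR5A2 lies on chromosome 10 at 22727865-22866905 and was the only member called lower on Day 10 than on Day 8. It ran from 0.686 to 2.13 CPM with a median of 1.33 on Day 8 (18 to 39 counts) and from 0.257 to 0.782 with a median of 0.490 on Day 10 (5 to 18 counts). The ranges of these days overlapped, and the 2.59-fold lower level on Day 10 was called narrowly (log2 fold change −1.37 ± 0.33, FDR 0.000707). That call was lost when any of 15 of the 20 embryos of Days 8 and 10 was left out and when female or male embryos were tested alone, with log2 fold changes from −1.48 to −1.27 without single embryos. On Day 12 the range was 2.94 to 28.6 CPM with a median of 18.8. NR5A2 rose 35.3-fold from Day 10 to Day 12 (5.14 ± 0.34, FDR 5.15e-14) without overlap, the largest fold of the 9 members in that comparison.

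In all, 2 of the 9 members were called higher on Day 10 than on Day 8, where 9.88% of all genes were, and 1 was called lower, where 4.20% were. The embryos of these days did not overlap in 2 members and in 22.0% of all genes. Against Day 10, 5 members were higher on Day 12, where 14.9% of all genes were called higher, and 1 was lower, where 8.39% were. The days were apart in 6 members and in 16.6% of all genes. Against Day 8, 6 members were higher on Day 12 and 1 was lower, with 22.0% and 10.4% of all genes called, and 7 members and 31.7% of all genes did not overlap. The median log2 fold change of the members was 0.37, 1.51 and 1.68 in the 3 comparisons, and that of all genes 0.03, 0.04 and 0.09. The comparisons share the embryos of a day and are not independent of each other.

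**Figure D2:**
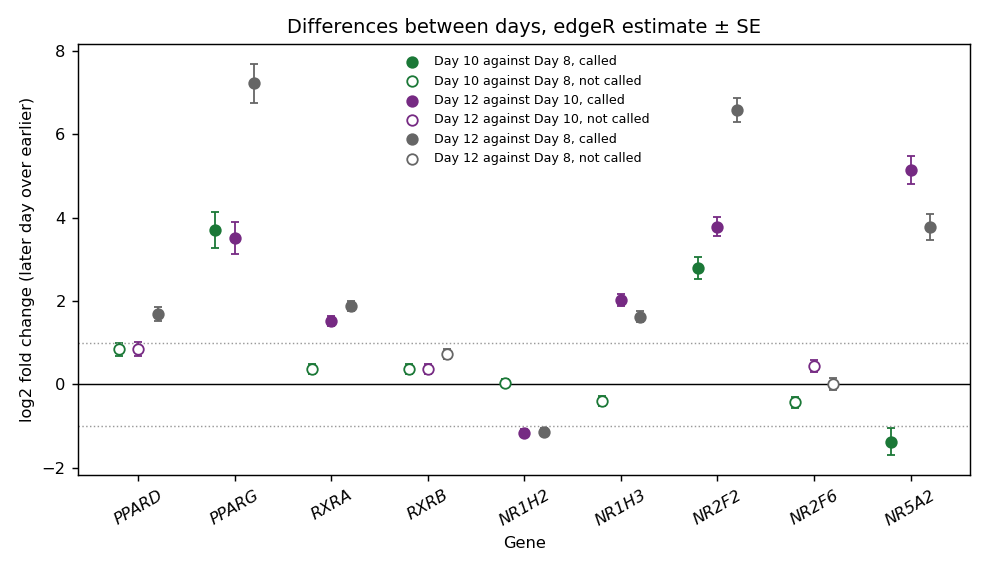
Log2 fold change of each receptor gene between days (later over earlier) with its SE from edgeR, for Day 10 against Day 8 in green, Day 12 against Day 10 in purple and Day 12 against Day 8 in grey, with filled symbols for called genes and dotted lines at 1 and −1. PPARG and NR2F2 reach 7.22 and 6.57 from Day 8 to Day 12, and NR1H2 is the only receptor below −1 on Day 12.

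Within each family the proportion of the paired receptors differed between days. Since transcript lengths differ, only the differences of a log2 ratio between days can be read and not its level. The log2 ratio of PPARG to PPARD averaged −5.46 ± 0.73 (SD, n = 10) on Day 8, −3.05 ± 0.94 on Day 10 and 0.04 ± 0.71 on Day 12. For the liver X receptors, the log2 ratio of NR1H3 to NR1H2 was −4.05 ± 0.36, −4.45 ± 0.34 and −1.30 ± 0.21 on the 3 days. The proportion of NR1H3 was thus higher in every embryo of Day 12 (lowest −1.68) than in any embryo of Day 8 or 10 (highest −3.44). The log2 ratio of NR2F2 to NR2F6 was −7.28 ± 0.56, −4.32 ± 0.82 and −0.93 ± 0.67. RXRA to RXRB was the most even pair, with 2.49 ± 0.21, 2.47 ± 0.33 and 3.63 ± 0.37, and its ranges on Days 10 and 12 overlapped slightly at 3.06. These ratios are given as a description, without a test.

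**Figure D3:**
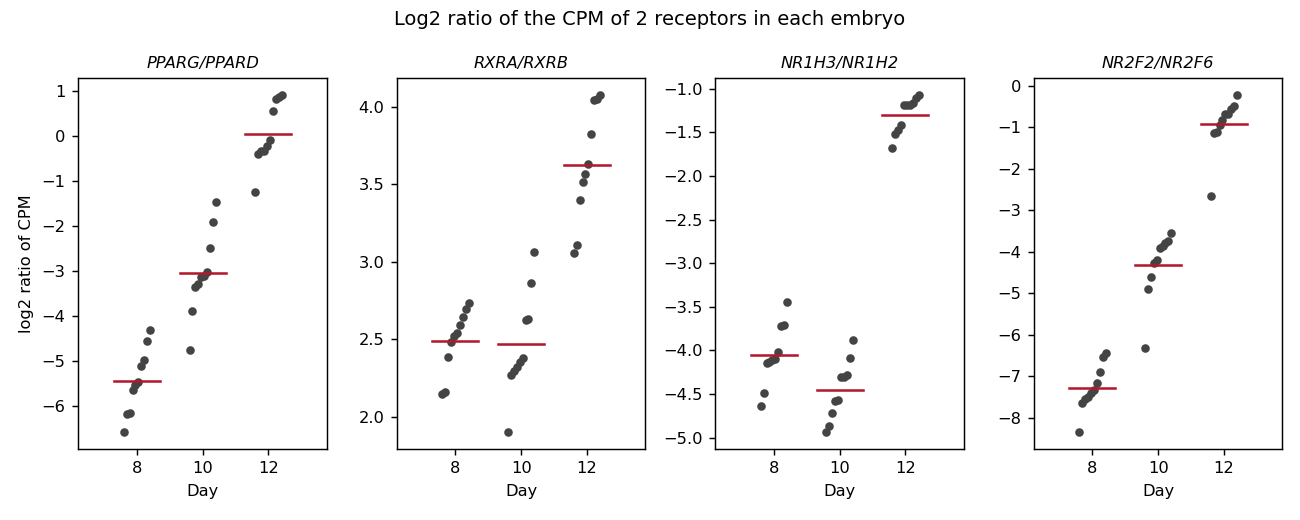
Log2 ratio of the CPM of related receptors (vertical axes, scaled separately) in each of the 10 embryos of a day, with points in order of value and red lines at the mean. The ratios NR1H3/NR1H2 and NR2F2/NR2F6 of all Day 12 embryos lie above those of all earlier embryos.

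The Day 12 embryos differed widely in NR5A2. The SD of its log2 CPM was 1.08, larger than that of 94% of all genes on that day. Embryos d12_f_271, d12_m_307 and d12_m_276 had 2.94, 6.38 and 7.55 CPM, and the other 7 had 15.3 to 28.6. The same embryos were the 3 lowest in PPARD, with 49.7, 43.8 and 51.1 CPM. The level of NR5A2 went with that of 5 markers of hypoblast and endoderm (GATA4, GATA6, SOX17, FOXA2 and PDGFRA). Their mean log2 CPM was 4.64 in d12_f_271, 4.81 in d12_m_276, 4.89 in d12_m_307 and 4.98 in d12_m_286, which are the 4 embryos lowest in NR5A2. It was 5.41 in d12_f_289 and 6.09 to 6.62 in the other 5, which are the 5 highest in NR5A2. The marker GATA4, for example, had 31.5 to 42.6 CPM in the former 4 embryos and 87.3 to 127 in the latter 5. Across the 10 embryos Pearson's r was 0.88 and Spearman's rho 0.99 (permutation p = 1e-05, the smallest the resamples can give, and 3e-05). With 72 relations of members and marker lists tested, the adjusted p were 0.00072 and 0.00216. For the single markers r ran from 0.68 to 0.87, and without the 2 embryos farthest from the median of the markers it was 0.86. The pattern was seen in the values before it was tested. On Day 8 r was 0.41 and rho 0.05 (permutation p = 0.244 and 0.892).

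PPARG had the opposite order in the same embryos, though the relation passed after adjustment in Spearman's measure only. The 4 embryos lowest in the hypoblast markers had the 4 highest PPARG levels, from 81.7 to 90.4 CPM, and d12_f_245 and d12_m_275, both among the 5 highest in the markers, had the lowest, 37.6 and 55.1. Pearson's r was −0.79 and Spearman's rho −0.89 (permutation p = 0.00367 and 0.00121, adjusted 0.0881 and 0.029), and without the 2 farthest embryos r was −0.71. RXRA had r of −0.77 and rho of −0.92 with the same markers (permutation p = 0.0137 and 0.00049, adjusted 0.122 and 0.0176), and without the 2 farthest embryos its r was −0.59. NR2F2 had r of −0.69 and rho of −0.76, and passed in neither measure (permutation adjusted p = 0.141 and 0.174). On Day 10, r of PPARG with the mean of the hypoblast markers was 0.68 (permutation p = 0.0319, adjusted 0.143). For the single markers r ran from −0.78 to 0.86 on that day, so the mean joins markers of opposite sign. Of the 72 relations, 1 passed in both measures, that of NR5A2 with the hypoblast markers on Day 12. Other cell type markers varied with the receptors in the same embryos. With the 10 trophectoderm markers, RXRA had r of 0.80 and rho of 0.87 (permutation p = 0.00247 and 0.00236, adjusted 0.0881 and 0.0425), and without the 2 farthest embryos r was 0.68. For the single trophectoderm markers r of RXRA ran from −0.33 to 0.91, so they differed in sign. NR5A2 had r and rho of −0.79 with the mean of those markers (permutation p = 0.00511 and 0.00912, adjusted 0.0882 and 0.131), and r was −0.49 without the 2 farthest. Its r with the single markers ran from −0.75 to −0.22. RXRB and NR2F6 each had r of 0.77 with the mean of the trophectoderm markers (permutation p = 0.0074 and 0.00857, both adjusted 0.0882). Without the 2 farthest embryos their r was 0.46 and 0.51. PPARG had r of 0.39 with that mean (permutation p = 0.267, adjusted 0.529), and 0.04 without the 2 farthest. With the 7 epiblast markers, r was −0.76 for RXRA and −0.74 for PPARG, and neither passed after adjustment (permutation adjusted p = 0.0882 and 0.122). Single epiblast markers also differed in sign, with r from −0.67 to 0.64 for RXRA and from −0.79 to 0.45 for PPARG. Centring both measures within each sex gave r of 0.88 for NR5A2 and −0.79 for PPARG, and the 5 embryos of a sex are too few for a value of their own. The log2 total count had r of 0.66 with PPARG, −0.08 with NR5A2 and −0.30 with the markers. Without d12_f_245, the embryo of the smallest total, r was 0.88 for NR5A2 and −0.94 for PPARG. The stage of development reached by each Day 12 embryo is not given in the labels, and the part of cell composition in these differences was not tested.

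**Figure D4:**
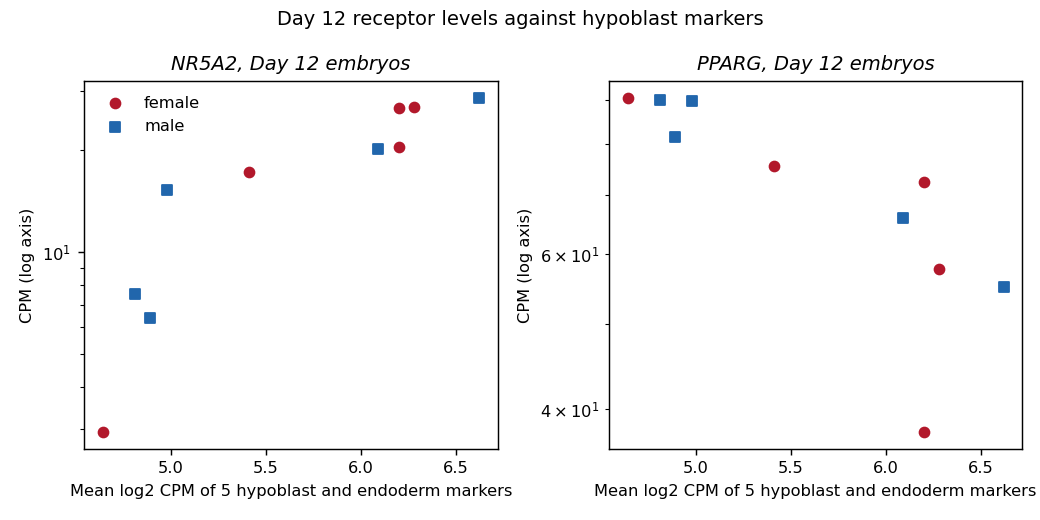
CPM of NR5A2 (left) and PPARG (right, both log axes) in the 10 embryos of Day 12 against the mean log2 CPM of 5 hypoblast and endoderm markers, with red circles for female and blue squares for male embryos. NR5A2 is lowest (2.94 CPM) and PPARG highest (90.4 CPM) in the embryo with the lowest markers, d12_f_271.

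The cell type markers moved between days as well. The summed level of the 10 trophectoderm markers was 20687 to 25317 CPM on Day 8, 32889 to 50178 on Day 10 and 9351 to 27890 on Day 12. HAND1, a trophoblast transcription factor, was at 0 to 0.464 CPM on Day 8, 22.7 to 175 on Day 10 and 584 to 1852 on Day 12. The 10 trophectoderm markers did not move together. Against Day 10, 3 were called higher and 4 lower on Day 12, where 14.9% and 8.39% of all genes were. KRT18 fell 4.64-fold and CDX2 2.68-fold in that interval (edgeR FDR 2.4e-11 and 1.02e-08). The 5 hypoblast markers in the table, of 7 listed, summed to 269 to 392 CPM, 138 to 182 and 141 to 1182. The 7 epiblast markers, of 8 listed, summed to 171 to 240 CPM, 119 to 175 and 18.4 to 157, and NODAL was at 0 in every Day 12 embryo. The 2 primitive streak markers in the table, of 6 listed, stayed at or below 5.95 CPM in sum. Of 9 markers of maternal blood and endometrium, 4 were in the table, and of these UPTI, a protease inhibitor of the endometrium, rose to 2319 to 6291 CPM on Day 12. The blood marker HBB was at most 8.36 CPM in any embryo. It had 3 counts or fewer in each Day 8 embryo and was called higher on Day 12, at 1.69 ± 2.44 CPM (edgeR FDR 9.54e-05). Of the 4 maternal markers, 3 were called higher and 0 lower on Day 12 than on Day 8, where 22.0% and 10.4% of all genes were. The part of these markers in the receptor differences between days was not tested.

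No member was called between the sexes. Genes were tested in the table of their day with an FDR under 0.05, female over male, and CPM in these tests are scaled within the day. The edgeR quasi-likelihood test called 0 of 7, 0 of 8 and 0 of 9 members on Days 8, 10 and 12, where it called 0.658%, 0.223% and 0.123% of all genes. At an unadjusted p under 0.05 it found 0, 1 and 3 members, and 4.59%, 2.36% and 22.7% of all genes. DESeq2 and the robust GLM of edgeR also called 0 members on each day. The female and male embryos overlapped in every member on every day, and the share of all genes without such overlap was not computed. On Day 10 the single member was RXRA, with 61.9 ± 11.9 CPM (SD, n = 5) in female and 50.0 ± 4.36 in male embryos (edgeR log2 fold change 0.31 ± 0.13, FDR 1).

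On Day 12 the 3 members were RXRB, NR1H3 and NR2F6, all with a higher mean in female embryos. RXRB had 17.4 ± 2.85 CPM in female and 12.3 ± 1.97 in male embryos, with ranges of 13.0 to 20.2 and 9.71 to 14.5 (edgeR log2 fold change 0.50 ± 0.17, FDR 0.198). NR1H3 had 19.9 ± 3.77 and 14.7 ± 2.44 CPM (0.43 ± 0.18, edgeR FDR 0.202). NR2F6 had 79.2 ± 29.2 and 54.2 ± 6.03 CPM (0.55 ± 0.23, edgeR FDR 0.205), and its female mean was raised by d12_f_245 and d12_f_271, which had 105 and 95.6 CPM in the table of all embryos. In a fit of all 30 embryos in 6 groups of day and sex, RXRB and NR2F6 on Day 12 passed, with edgeR FDR of 0.0322 and 0.0495. The share of all genes called in that fit was not computed, so these calls cannot be set against it. On that day 22.7% of all genes had an unadjusted p under 0.05.

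Whether the sex difference of a member changed from day to day was tested as the interaction of sex and day. The edgeR fit called 0 of 9 members in each of the 3 comparisons, where 0% of all genes were called. Unadjusted p were under 0.05 for 100, 2473 and 2863 of all genes between Days 8 and 10, Days 10 and 12 and Days 8 and 12. Among the members they were under 0.05 for 0, 1 (RXRB) and 2 (NR1H3 and NR2F6). The largest of these was NR1H3, whose female over male log2 fold change was 0.61 ± 0.24 higher on Day 12 than on Day 8 (edgeR FDR 0.152). DESeq2 and the robust GLM also called 0 members.

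The other receptors that pair with RXR were measured as a list, of which 5 of 12 were in the table. From Day 8 to Day 10, 0 were called higher and 1 lower, and from Day 10 to Day 12, 1 was higher and 1 lower, with median log2 fold changes of −0.15 and 0.06. The shares of all genes called higher and lower were 9.88% and 4.20% in the first interval, and 14.9% and 8.39% in the second. VDR, the vitamin D receptor, fell from 41.7 ± 6.62 CPM (SD, n = 10) on Day 8 to 17.6 ± 2.22 on Day 10 (edgeR FDR 1.67e-10). Of the 3 retinoic acid receptors in the table, 2 were called between Days 10 and 12, with RARA rising 6.49-fold from 3.40 ± 0.61 CPM on Day 10 to 22.2 ± 5.39 on Day 12 (edgeR FDR 4.05e-17) and RARG falling 3.34-fold from 32.3 ± 4.87 to 9.67 ± 2.83 (edgeR FDR 2.07e-12). RARB had 2.58 ± 1.71 CPM on Day 10 and 1.47 ± 1.06 on Day 12 and was not called (edgeR FDR 0.224).

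Of 26 other nuclear receptors listed, 15 were in the table. Between Days 8 and 10, 1 was higher and 3 were lower, where 9.88% and 4.20% of all genes were. Between Days 10 and 12, 3 were higher and 3 lower, where 14.9% and 8.39% of all genes were. ESRRB, an orphan receptor of pluripotent and trophoblast cells, fell from 348 ± 34.7 CPM on Day 8 to 70.8 ± 41.9 on Day 10 and 0.225 ± 0.289 on Day 12 (edgeR FDR 1.62e-07 and 3.58e-16). ESRRG, its relative, fell from 34.6 ± 7.72 to 3.60 ± 2.55 CPM by Day 10 (edgeR FDR 6.3e-09). NR3C2, the mineralocorticoid receptor, rose 4.55-fold from Day 8 to Day 10 and RORA 4.09-fold from Day 10 to Day 12 (edgeR FDR 4.38e-07 and 7.17e-08).

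All 24 listed coactivators and corepressors were in the table. Between Days 8 and 10, 3 were higher and 1 was lower, and between Days 10 and 12, 2 were higher and 3 lower, with medians of −0.18 and 0.07. The shares of all genes called were 9.88% higher and 4.20% lower in the first interval, and 14.9% and 8.39% in the second. NRIP1, a corepressor of many nuclear receptors, rose 3.20-fold from Day 10 to Day 12, and NCOA1, a coactivator, fell 2.95-fold (edgeR FDR 2.96e-09 and 4.96e-10). CARM1, an arginine methyltransferase that acts with coactivators, fell 2.18-fold from Day 8 to Day 10 (edgeR FDR 7.02e-11).

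Genes that make or carry ligands of these receptors were called in both directions in each interval. Of 23 listed, 14 were in the table, and 2 were higher and 2 lower on Day 10 than on Day 8, where 9.88% and 4.20% of all genes were. On Day 12, 6 were higher and 2 lower than on Day 10, where 14.9% and 8.39% of all genes were. The median log2 fold change of the list was 0.44 in the first comparison, or 0.18 with genes at the detection floor set to their bound, and 1.30 in the second. PTGS2, the prostaglandin synthase, fell from 815 ± 151 CPM on Day 8 to 132 ± 60.9 on Day 10 (edgeR FDR 5.07e-06), and PTGES, which makes prostaglandin E from its product, fell 10.3-fold from Day 10 to Day 12 (edgeR FDR 2.07e-12). RBP4, which carries retinol, rose 112-fold from 0.16 ± 0.17 to 19.8 ± 21.7 CPM between Days 8 and 10 (edgeR FDR 6.02e-11). CYP26A1, which degrades retinoic acid, rose 75.0-fold and CH25H, which makes an oxysterol, 73.1-fold between Days 10 and 12 (edgeR FDR 3.89e-12 and 3.14e-11). CH25H had 3 counts or fewer in each Day 8 embryo, 0.180 ± 0.0904 CPM on Day 10, near the floor, and 13.8 ± 11.0 on Day 12. It could be listed only with Day 12 embryos, so a rise on Day 12 was fixed by the listing.

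Known targets of the PPARs in fatty acid oxidation were called in both directions in each interval. Of 20 in the table (23 listed), 3 were higher and 1 was lower on Day 10 than on Day 8, and 5 were higher and 1 lower on Day 12 than on Day 10, with medians of 0.38 and −0.01. Among all genes 9.88% were called higher and 4.20% lower in the first interval, and 14.9% and 8.39% in the second. CPT1A, which admits fatty acids into mitochondria, fell from 48.8 ± 9.19 CPM on Day 8 to 18.5 ± 5.26 on Day 10 and rose 14.7-fold to 272 ± 105 on Day 12 (edgeR FDR 4.91e-07 and 5.22e-16). SLC25A20, the mitochondrial carnitine carrier, rose 3.58-fold in the second interval (edgeR FDR 2.6e-11). SCP2, a lipid transfer protein of peroxisomes, rose 2.36-fold by Day 10 and fell 6.09-fold by Day 12 (edgeR FDR 9.28e-07 and 2.83e-13).

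Targets in fatty acid uptake, binding and storage moved in both directions. Of 23 in the table (35 listed), 5 were higher and 1 was lower on Day 10 than on Day 8, with a median of 0.89, or 0.50 with genes at the floor set to their bound. On Day 12, 4 were higher and 7 lower than on Day 10, with a median of −0.52. SLC27A6, a fatty acid transporter, rose from 0.358 ± 0.579 to 117 ± 147 CPM between Days 8 and 10, and ACSL3, an acyl-CoA synthetase of lipid droplets, from 52.3 ± 10.7 to 1019 ± 808 (edgeR FDR 2.99e-09 and 8.15e-11). PLIN2, a lipid droplet coat protein, fell on both intervals, from 1828 ± 142 CPM to 690 ± 122 and then to 116 ± 43.0 (edgeR FDR 5.26e-09 and 7.66e-15). CIDEA, another lipid droplet protein, rose from 0.112 ± 0.147 CPM on Day 10 to 7.25 ± 4.69 on Day 12, and DBI, which binds acyl-CoA, fell 3.77-fold (edgeR FDR 1.58e-11 and 9.59e-14). CIDEA was near the floor on Days 8 and 10 and could be listed only with Day 12 embryos, so its rise was fixed by the listing. Among all genes, 9.88% were called higher and 4.20% lower in the first interval, and 14.9% and 8.39% in the second. Their median log2 fold changes were 0.03 and 0.04.

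Of the 12 targets of the liver X receptors in the table (20 listed), 2 were higher and 1 was lower on Day 10 than on Day 8, and 3 were higher and 5 lower on Day 12 than on Day 10, with medians of 0.37 and −0.87. The shares of all genes were 9.88% higher and 4.20% lower in the first interval, and 14.9% and 8.39% in the second. APOE, an apolipoprotein of cholesterol export, rose 4.17-fold from 205 ± 41.8 CPM on Day 10 to 854 ± 650 on Day 12 (edgeR FDR 6.78e-08). The lysosomal cholesterol transporters NPC1 and NPC2 fell 3.69-fold and 5.92-fold in that interval (edgeR FDR 1.01e-09 and 1.47e-12), and NPC1 had already fallen 6.58-fold from Day 8 to Day 10 (edgeR FDR 1.86e-12).

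Of the 10 targets of NR5A2 in the table (15 listed), 4 were higher and 1 was lower on Day 10 than on Day 8, where 9.88% and 4.20% of all genes were. On Day 12, 3 were higher and 5 lower than on Day 10, where 14.9% and 8.39% of all genes were. The median was 1.13 in the first comparison and −1.01 in the second, and with genes at the floor set to their bound the first was −0.13. CYP17A1, an enzyme of androgen synthesis, rose from 0.702 ± 0.369 to 5433 ± 4630 CPM by Day 10 and fell 59.0-fold to 92.0 ± 52.0 by Day 12 (edgeR FDR 1.99e-15 and 2.72e-11). CYP19A1, aromatase, had 3 counts or fewer in each embryo of Day 8, was at least 9560-fold higher on Day 10 and fell 40.9-fold by Day 12 (edgeR FDR 1.99e-15 and 1.65e-10). The near-identical copies of CYP19A1 in the pig make its counts uncertain. CCND1, a cyclin, rose 23.4-fold from 2.0 ± 0.794 CPM on Day 10 to 47.0 ± 15.0 on Day 12 (edgeR FDR 8.52e-16). POU5F1, a pluripotency factor that is also among the epiblast markers, fell 2.15-fold by Day 10 (edgeR FDR 4.34e-05) and had 0.611 to 4.05 CPM on Day 12.

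**Figure D5:**
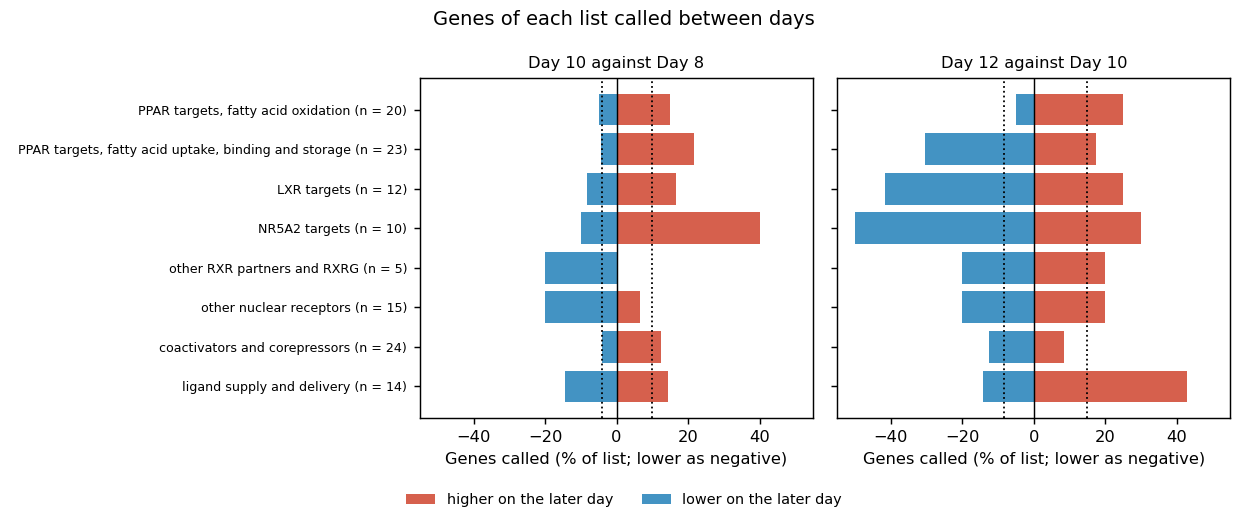
Share of the measured genes of each list called higher (red, to the right) or lower (blue, to the left, as negative percent) for Day 10 against Day 8 and Day 12 against Day 10, with dotted lines at the shares of all genes. Among 10 NR5A2 targets, 4 were higher on Day 10 and 5 lower on Day 12, and among 14 genes of ligand supply 6 were higher on Day 12.

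The genes with the pattern most like each member over the 30 embryos were found by the root mean square (RMS) difference of centred log2 CPM, over 10827 genes with a mean of at least 1 CPM. PPARG was closest to PMEPA1 and MTURN, with RMS differences of 0.75 and 0.79 log2 units. NR2F2 was closest to PRICKLE1 (0.68) and, like PPARG, to PMEPA1 (0.75), an inhibitor of TGF-β signalling. NR5A2 was closest to CILP2 (0.72) and COLEC12 (0.75). The other members had smaller RMS differences. The measure is not scaled by the spread of a gene, so its size does not rank members by how close their partners are. PPARD was nearest to GSN (0.27) and ANO10 (0.29), RXRA to SPRYD3 (0.24) and OAZ2 (0.24), and NR1H3 to SHOX2 (0.26) and PHC1 (0.29). NR1H2 was nearest to PGPEP1 (0.21) and MFSD7 (0.24), RXRB to PSMB6 (0.17) and COMMD7 (0.17), and NR2F6 to AUP1 (0.16) and PRR14 (0.16). These values describe likeness over embryos that differ mainly by day.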

How the data were processed

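RNA-seq libraries of poly(A) RNA from 30 single pig embryos had been sequenced as single-end reads. In Galaxy, the authors used Trim Galore for trimming, mapped to NCBI's Sus scrofa assembly Sscrofa11.1 and its annotation, and dropped genes by a limit on CPM. Which aligner and counter they used, and the limit, is not given in the sources used here. The deposited values are raw counts per NCBI gene identifier, in 1 table for all embryos and 1 for each day, with identical counts where tables share a gene. Symbols and positions came from the RefSeq table of the same assembly, in which all 13103 identifiers were matched.

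Comparisons of days used 1 fit of 3 day groups on the first table and comparisons of sexes the table of the day, with edgeR 4.0.16 (TMM factors, robust quasi-likelihood F test, Benjamini-Hochberg adjustment) in R 4.3.3. SE of fold changes were derived from the F statistic (log2 fold change divided by its root). Log2 CPM of single embryos used a prior count of 2, and 3 counts were taken as the detection floor. Bounds of folds were set against the floor of the smallest library of the day. Correlations within days used two-sided permutation tests of 100000 resamples. The fits were tested on simulated data. The members, the gene lists and the tests were chosen with earlier results of these data known. The genes named were the members, per member the 2 genes most alike, and genes drawn from the lists. The latter were taken, per list and comparison, from the called genes without overlap that rose most (2) and fell most (2). Not every gene that met this rule is named, and RARB is named though it was not called. KRT8, CDX2, HAND1, GATA4 and HBB were also named as defining markers. Alternatives were the robust GLM that the study names, DESeq2 1.42.0, RLE factors, library size alone, 10 counts in at least 5 embryos, sex as a term, only the 2 days compared, each sex alone, a test for changes beyond a log2 fold change of 1, 6 groups of day and sex, and each embryo left out. Some genes are not reported here and were taken out of the lists, and of every count over them, after the results were seen. Ratios and relations within days were added after the data were seen. No 2 replicates were alike within sampling noise (chi-square per degree of freedom at least 7.64 over 60 pairs).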

Additional observations from a re-analysis of the deposited data

Results flagged for a closer look

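Dixon's test was applied to the 9 members in groups of 10 embryos of a day and of 5 embryos of a day and sex, 81 groups in all, and 3 held an embryo set apart from the rest, where chance gives about 1 in 20 groups. NR2F2 on Day 10 was lowest in d10_m_435, with 0.639 CPM against 1.64 in the next embryo. This embryo was also the lowest of Day 10 in PPARD (24.8 CPM) and the second lowest in PPARG and NR5A2 (1.60 and 0.274 CPM). NR5A2 in Day 10 female embryos was lowest in d10_f_454, with 0.257 CPM against 0.491 in the next, at 5 to 18 counts per embryo on that day. NR5A2 in Day 12 female embryos was lowest in d12_f_271, with 2.94 CPM against 17.3 in the next. This embryo also had the lowest mean of the hypoblast markers (4.64 log2 CPM) and the highest PPARG and RXRA of Day 12 (90.4 and 231 CPM).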

How the results depend on the processing

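The number of members called stayed at 2 to 3 for Day 10 against Day 8, 5 to 6 for Day 12 against Day 10 and 6 to 7 for Day 12 against Day 8 under all alternatives. Of 270 log2 fold changes between days under alternatives other than leaving out an embryo, 258 kept their direction and their side of the threshold, as did 519 of 540 with an embryo left out. NR5A2 on Day 10 against Day 8 lost its call in 15 of 20 fits without an embryo, in female and in male embryos alone (edgeR FDR 0.0288 and 0.0262) and in the test for changes beyond a log2 fold change of 1 (FDR 0.323), and the FDR over all its alternatives ran from 1.96e-05 to 0.323. The fits of a single sex held 5 embryos a day, and the part of sample size in the lost calls was not tested. NR1H2 lost its call on Day 12 against Day 10 with library size alone (log2 fold change −0.97) and against Days 10 and 8 in that test. PPARD was called on Day 12 against Day 10 with library size alone (1.07). Library size alone moved the median log2 difference of all genes from 0.02 to −0.15 between Days 8 and 10 and from 0.02 to 0.21 between Days 10 and 12.

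Values near 0 changed sign, as did that of PPARG between the sexes on Day 10 (log2 fold change −0.37 ± 0.75), and the cause was not tested. NR1H2 on Day 10 against Day 8 was −0.16 with library size alone and −0.028 to 0.061 without single embryos. NR2F6 on Day 12 against Day 8 was −0.015 with 2 days in the fit, −0.12 with the robust GLM, −0.31 in male embryos, −0.00310 with sex as a term and −0.097 to 0.063 without single embryos. Between the sexes, NR1H3 on Day 10 was 0.00184 in 6 groups and −0.10 to 0.10 without single embryos, and RXRA on Day 12 was −0.033 in 6 groups, −0.011 with the robust GLM, −0.022 with library size alone and −0.13 to 0.10 without single embryos. The sign also changed without single embryos for NR1H2 (−0.013 to 0.16), NR2F6 (−0.051 to 0.12), PPARD (−0.11 to 0.33) and PPARG (−1.18 to 0.18) on Day 10 and for NR2F6 (−0.21 to 0.0078), NR5A2 (−0.16 to 0.25), RXRA (−0.098 to 0.017) and RXRB (−0.013 to 0.20) on Day 8. The count between the sexes on Day 12 was 2 in the fit of 6 groups and 0 otherwise. The interaction count stayed at 0 without single embryos, an alternative chosen after seeing the data. The r of NR5A2 with the hypoblast markers ran from 0.86 to 0.93 without single embryos and that of PPARG from −0.94 to −0.76. No paired analysis was possible because the labels number each embryo on its own and give no litter. Levels per transcript length, and their alternative, were not run because no transcript lengths were at hand. Members at a few counts per embryo (PPARG and NR2F2 on Day 8, NR5A2 on Day 10) are limited by depth.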
